A study of Homo sapiens with 17 samples.

Results

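ETV4, ETV1 and ETS1 are transcription factors of the ETS family, and they were taken by gene symbol from the authors' 4 tables of genes lowered by short hairpin RNAs (shRNAs) in PC3 cells. They are 3 of the 1400 genes listed in at least 1 table, and 3 of the 28 human ETS-family genes. PC3 is an established human prostate cancer cell line. RNA was sequenced 7 days after infection with a virus carrying the hairpin. Cells with MED25 shRNA A or B, delivered by lentivirus, were set against cells with a lentiviral luciferase shRNA, with 3 libraries for each of these groups. Cells with ETV4 shRNA A or B, delivered by retrovirus and with 3 libraries each, were set against cells with a retroviral control shRNA, with 2 libraries. The labels give the controls as shRNAs, while the series design text gives an empty vector. All 17 libraries came from early-passage infected cells, and the labels do not say if the replicates were separate cultures. Both hairpins of a target share their control libraries.

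ETS factors bind DNA through a conserved winged helix-turn-helix domain that recognises a GGAA core. ETV4 and ETV1, with ETV5, form the PEA3 subfamily, whose members are activated by ERK signalling, and ETV1 and ETV4 are among the ETS genes switched on by chromosomal rearrangement in prostate cancers. ETS1 is the founding member of the family and is also phosphorylated by ERK. MED25 is a subunit of Mediator, the complex that links transcription factors to RNA polymerase II, and it binds the acidic activation domain of PEA3 factors.

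Each table held 1 log2 ratio per gene and 1 score, the second being what the authors headed an adjusted p, on a scale that they do not state. A higher score is read as a smaller p. The tables listed 786 genes for MED25 shRNA A, 374 for MED25 shRNA B, 495 for ETV4 shRNA A and 98 for ETV4 shRNA B. Every ratio below is knockdown over control. The direction was set partly from the sign of the targeted genes, so their decrease is no independent check of it. All listed genes were at least 1.5-fold lower in the knockdown cells, and the lowest score lay between 20.1 and 20.3. For a gene absent from a table no value is known. No values for single libraries were analysed here, so no value has an error or a test, and depth is unknown. In bulk RNA, fewer cells with a transcript and less of it per cell cannot be told apart. The factors were chosen from these same ratios, so all their values are descriptions.

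The 3 factors gave 5 values in all, and none of them was listed for hairpins of both targets. The share of all genes listed for both targets was not counted here, so nothing is read from this. ETV4 was listed for both ETV4 hairpins, ETS1 for both MED25 hairpins, and ETV1 for MED25 shRNA A alone. ETV4 was lowered by 3.84-fold and 6.35-fold, while the decreases of ETS1 and ETV1 lay between 1.56-fold and 1.73-fold. Of the 28 ETS-family genes, 2 were listed for MED25 shRNA A, against 3.44% of all annotated protein-coding genes. For MED25 shRNA B it was 1 of 28, against 1.61%. For ETV4 shRNA A and shRNA B it was the targeted gene alone, 1 of 28, against 2.17% and 0.456%. How many genes the authors tested is not stated, so these shares are of the annotation, and nothing is read from counts that the choice of genes fixed. A decrease of at least 2-fold was reached by ETV4 with both ETV4 hairpins, against 0.491% of protein-coding genes for shRNA A and 0.0802% for shRNA B. It was reached by none of the 3 factors with MED25 hairpins, against 0.802% for shRNA A and 0.336% for shRNA B.

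**Figure D1:**
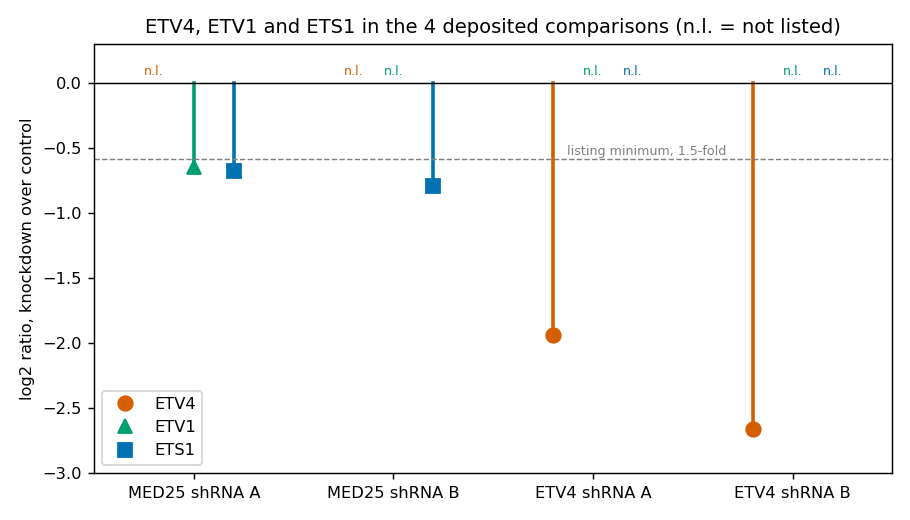
Log2 ratio of knockdown over control (vertical axis) for ETV4, ETV1 and ETS1 in each of the 4 deposited comparisons (horizontal axis), with 1 point per listed value and the 1.5-fold listing minimum as a dashed line. ETV4 lies at −1.94 and −2.67 with its own hairpins, while ETV1 and ETS1 lie between −0.64 and −0.79 with MED25 hairpins.

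ETV4 (ENSG00000175832, chromosome 17) was the target of the retroviral hairpins. In the authors' deposited table for shRNA A it was at −1.94, which is 26.1% of control, with a score of 2335. In the authors' deposited table for shRNA B it was at −2.67, or 15.8% of control, with a score of 3039. Its score was the highest of both tables. The next highest score in either table belonged to CD55, an inhibitor of complement on the cell surface, with 2011 for shRNA A and 1022 for shRNA B in the authors' deposited tables. By size of decrease ETV4 was number 1 of 98 with shRNA B and number 10 of 495 with shRNA A. Score and decrease therefore ordered ETV4 differently with shRNA A. There, 9 genes were lowered further than the targeted transcript, all with lower scores. The lowest of them was the clone-named gene ENSG00000236345 at −2.32, with a score of 454, in the authors' deposited table. The others included the potassium channel gene KCNK15 at −2.29, the keratin gene KRT75 at −2.29 and the glutathione-degrading enzyme gene CHAC1 at −2.11, in the authors' deposited table. The 4 were named after their values were seen, as were CD55 and IGF2BP1. Some of these genes were also listed with MED25 hairpins: KCNK15 and IGF2BP1 with both, CHAC1 with shRNA A and KRT75 with shRNA B.

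After ETV4, the gene lowered furthest with shRNA B was the RNA-binding protein gene IGF2BP1, at −2.48 in the authors' deposited table. With the MED25 hairpins IGF2BP1 was at −2.77 for shRNA A and −1.88 for shRNA B, in the authors' deposited tables. Besides ETV4, 26 genes were listed for both ETV4 hairpins and for neither MED25 hairpin. As ETV4 was lowered furthest of all with shRNA B, none of the 26 could be lower than it with both hairpins. Of the 26, 22 were less lowered than ETV4 with both. Among these 26, the gene most like ETV4, by Euclidean distance of the 2 log2 ratios, was the antisense gene RP11-550P17.5. The authors' deposited tables have it at −1.93 for shRNA A and at −1.78 for shRNA B. Its distance to ETV4 was 0.888. The next was keratin 20 (KRT20), an epithelial intermediate filament, which the authors' deposited tables have at −2.16 for shRNA A and −1.10 for shRNA B, a distance of 1.58. FLT1, a receptor for vascular endothelial growth factor, followed with −1.15 and −1.29, from the authors' deposited tables, at a distance of 1.59. The pseudogene AADACP1, listed under the clone name RP11-64D22.2, had −1.45 and −1.15, from the authors' deposited tables, also at a distance of 1.59. With shRNA B the scores were low for KRT20, at 31.1, and AADACP1, at 29.6, beside a median of 66.7 in the authors' deposited table. None of the 26 lay within 0.1 of ETV4. The value of the antisense gene is uncertain, since a count made without strand would mix its reads with those of a sense partner.

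**Figure D2:**
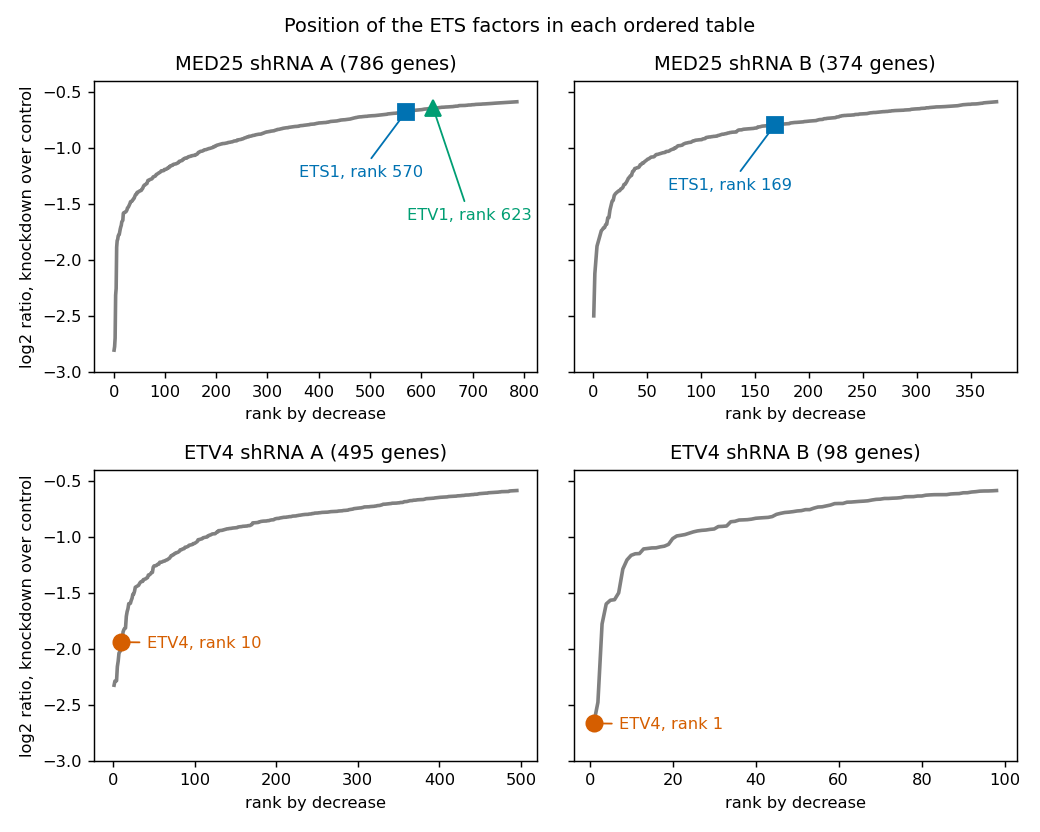
Log2 ratio of knockdown over control (vertical axis) of all genes in each of the 4 tables, ordered by decrease (horizontal axis, rank 1 being the largest), with the ETS factors marked. ETV4 sits at rank 10 of 495 and rank 1 of 98, while ETS1 and ETV1 sit on the flat part of the MED25 curves.

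ETS1 (ENSG00000134954, chromosome 11) was listed for both MED25 hairpins. In the authors' deposited table for MED25 shRNA A it was at −0.67, or 62.7% of control, with a score of 69.1. In the authors' deposited table for MED25 shRNA B it was at −0.79, or 57.9% of control, with a score of 94.9. These are decreases of 1.60-fold and 1.73-fold. MED25 itself was at 51.6% of control with shRNA A and at 30.5% with shRNA B, from the authors' deposited tables. The lower ETS1 value thus came with the hairpin that left less MED25, and the difference between hairpins was not tested.

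ETS1 was a typical listed gene with MED25 shRNA B and a small decrease with MED25 shRNA A. Its rank by decrease was 169 of 374 with shRNA B, where the median of the authors' deposited table was −0.77. With shRNA A its rank was 570 of 786, where the median of the authors' deposited table was −0.78. With shRNA B, 139 genes lay within 0.1 of it on the log2 scale, ETS1 itself included. Of these, 23 had a higher score than ETS1, and the median score was 48.4. Among the 385 such genes with shRNA A, ETS1 again included, 168 had a higher score, and the median was 63.5. For its size of decrease, ETS1 had a high score with shRNA B and a middling one with shRNA A.

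Besides ETS1, 124 genes were listed for both MED25 hairpins and for neither ETV4 hairpin. Of these, 50 were lowered further than ETS1 with both hairpins and 17 less than ETS1 with both. Within a distance of 0.1 there were 13 genes. The nearest was LAMC3, a laminin chain of basement membranes, with −0.69 for shRNA A and −0.79 for shRNA B, from the authors' deposited tables. It was followed by CDC42EP2, an effector of the small GTPase CDC42, with −0.64 and −0.78, from the authors' deposited tables. Then came the membrane protein gene CMTM7 at −0.69 and −0.74, and the stress-response gene GADD45B at −0.71 and −0.82, from the authors' deposited tables. The MED25 tables share their lentiviral controls, so their values are not independent of each other.

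ETV1 (ENSG00000006468, chromosome 7) was listed for MED25 shRNA A alone. In the authors' deposited table it was at −0.64, or 64.0% of control, with a score of 102. This decrease of 1.56-fold lay 0.058 beyond the smallest listed one on the log2 scale. Its rank by decrease was 623 of 786, but its rank by score was 230. Among the 332 genes within 0.1 of it, ETV1 itself included, 61 had a higher score, and the median score was 59.4. ETV1 was thus among the smaller decreases and, for its size, among the higher scores. It was not listed for MED25 shRNA B, the hairpin that left less MED25, and whether its response differed between the hairpins was not tested.

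With only 1 value per gene, likeness to ETV1 says little, since 269 of the 543 other genes listed for MED25 shRNA A alone lay within 0.1 of it. The nearest were the ubiquitin ligase gene RNF6 at −0.64, the translation initiation factor gene EIF3K at −0.64, the mitochondrial kinase gene PINK1 at −0.64 and the pseudogene EEF1A1P6 at −0.64, in the authors' deposited table. The value of EEF1A1P6 is uncertain, because near-identical copies of its parent gene can share reads. The scores of these neighbours ranged more widely, with 109 for RNF6 and 36.2 for EEF1A1P6 in the authors' deposited table.

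**Figure D3:**
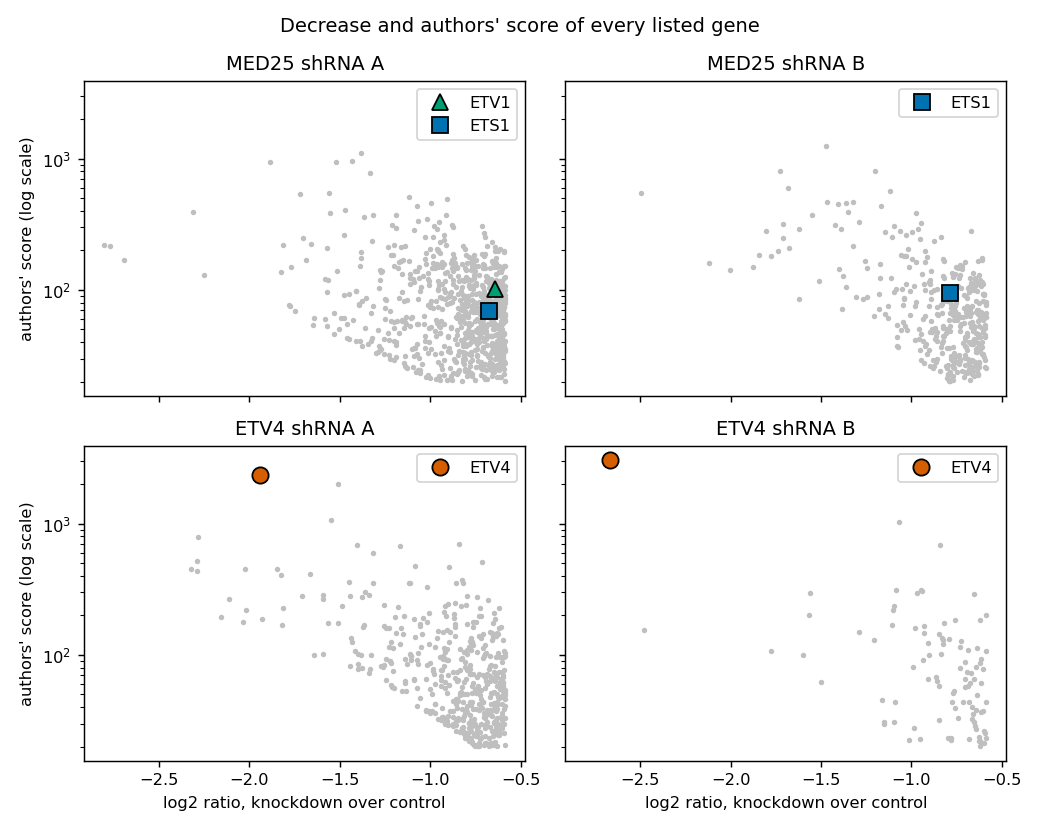
The authors' score (vertical axis, log scale) against the log2 ratio of knockdown over control (horizontal axis) for every listed gene in the 4 comparisons, with the ETS factors marked. ETV4 has the highest score in both of its tables, at 2335 and 3039, while ETS1 and ETV1 lie within the cloud with scores between 69.1 and 102.

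The RefSeq promoter table on GRCh38.p14 held 6 start sites of ETV1. ETV4 and ETS1 had no entry. Each window runs from 250 bases before a start to 50 bases after it. As ETV1 is itself an ETS factor, the GGAA core that its family binds was searched on both strands. The 2 windows below are shown because one holds the outermost start and the other the most GGAA cores. Capitals mark GGAA on the gene strand or its reverse complement TTCC.
ETV1, outermost start, chr7:13991376-13991675, minus strand: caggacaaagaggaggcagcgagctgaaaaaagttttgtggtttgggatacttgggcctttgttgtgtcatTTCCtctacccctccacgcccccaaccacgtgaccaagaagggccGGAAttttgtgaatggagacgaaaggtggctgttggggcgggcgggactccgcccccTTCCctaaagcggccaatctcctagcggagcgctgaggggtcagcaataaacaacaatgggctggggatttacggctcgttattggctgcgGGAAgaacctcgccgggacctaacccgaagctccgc
ETV1, inner start with most cores, chr7:13989617-13989916, minus strand: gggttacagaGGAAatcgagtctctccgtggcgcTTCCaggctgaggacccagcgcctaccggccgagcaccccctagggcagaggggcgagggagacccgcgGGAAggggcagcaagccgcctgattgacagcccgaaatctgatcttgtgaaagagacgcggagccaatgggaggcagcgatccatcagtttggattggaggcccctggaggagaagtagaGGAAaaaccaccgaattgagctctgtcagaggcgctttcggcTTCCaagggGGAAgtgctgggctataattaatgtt

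The first window held 4 cores and the second 6, and the 6 windows ranged between 3 and 6. The median over 21013 promoter windows of protein-coding genes was 3, and 15.8% of them held at least 6, while 95.2% held at least 1. The highest ETV1 window was picked from 6, while this share is of single windows. It does not give how often the highest window of a gene reaches 6. The longer ETS site CCGGAAG was in none of the ETV1 windows and in 12.9% of all windows. GGAAGT was in the second window shown, beginning 24 bases after the start, and in 24.1% of all windows. Each of these longer motifs contains the core. The AP-1 site TGANTCA was in none of the ETV1 windows and in 6.21% of all windows. A match is a description of the letters and does not show that a factor binds there.

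**Figure D4:**
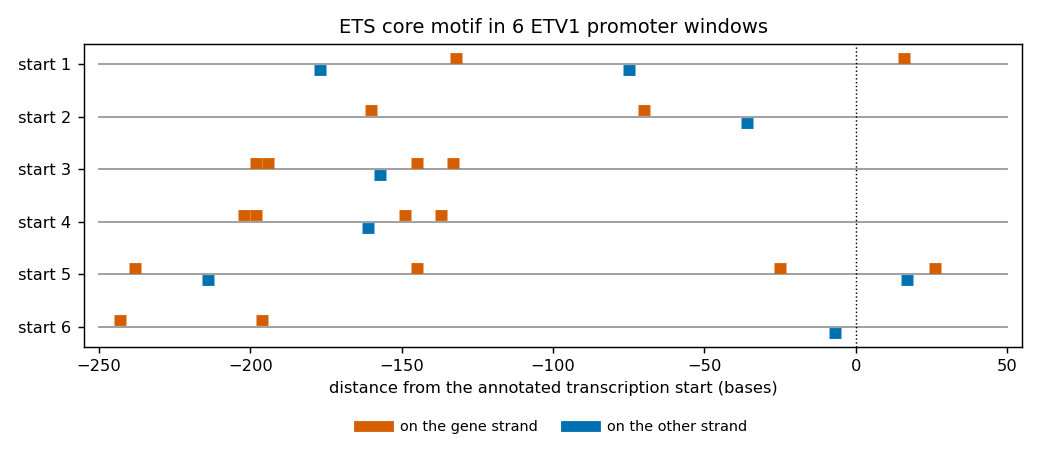
Position of each GGAA core relative to the annotated transcription start (horizontal axis, bases) in the 6 ETV1 promoter windows, given from the outermost start at the top to the innermost at the bottom, with matches on the gene strand above each line and on the other strand below it. Each window holds between 3 and 6 cores, and starts 3 and 4 overlap almost wholly.

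Reads of these factors could be mixed with those of other genes to a small extent. In GENCODE 29 transcripts, 0.609% of the distinct 50-base runs of ETV4 also occurred in another gene, 0 of 9975 did for ETV1, and 0.660% did for ETS1. The longest run that ETV4 shared with ETV5 was 33 bases, and the longest it shared with ETV1 was 17 bases. ETV4 and ETS1 shared 45 identical bases. The sources used here do not give the read length. DHX8, a helicase gene on the opposite strand, covers 68 exonic bases of ETV4, or 1.89% of them, and was listed in 0 of the 4 tables. Of the genes that share 50-base runs with ETS1, TFAP4, a helix-loop-helix factor gene, shared 2 runs and was listed in 1 table, and the others were in none. The antisense gene ETS1-AS1 overlaps the span of ETS1, shares 0 exonic bases with it and was likewise listed in 0 tables.

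The rest of the family was not listed, beside 6.14% of all annotated protein-coding genes listed in at least 1 table. Besides the 3 factors, 25 ETS genes appeared in no table. Of the PEA3 subfamily, 2 of 3 were listed, ETV5 being the exception, a count that the choice of ETV4 and ETV1 fixed. Of the subfamily of ETS1 and ETS2, 1 of 2 was listed. The ERG subfamily, which includes the prostate cancer oncogene ERG, had 0 of 3 listed, and the ternary complex factors ELK1, ELK3 and ELK4 had 0 of 3. With so few genes in a subfamily and so low a share of all genes, nothing is read from these counts.

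Genes that earlier work on other cells ties to ETS factors were counted next, by lists drawn up from general knowledge but with earlier results of these data known. The shares of these lists are therefore not independent of the data, and no support is drawn from them. A list of 30 ETS target genes had 4 members listed for ETV4 shRNA A (13.3%, against 2.17% of all protein-coding genes) and 1 for ETV4 shRNA B (3.33%, against 0.456%). For this comparison with shRNA A, the authors' deposited table has the collagenase gene MMP1 at −1.18, FLT1 at −1.15, the related receptor gene KDR at −0.90 and the stromelysin gene MMP3 at −0.73. The median of these 4 was −1.03, beside −0.79 for all genes of that table. FLT1 was the member listed for ETV4 shRNA B too, where the authors' deposited table has −1.29. MMP3 had a score of 20.2 with ETV4 shRNA A, near the lowest of the authors' deposited table, while KDR had 34.0 and MMP1 had 233. The count for ETV4 shRNA A was 2 in place of 4 with a score of at least 50, and also 2 with a decrease of at least 2-fold.

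For the MED25 hairpins the target list had 3 members with shRNA A (10.0%, against 3.44%) and 2 with shRNA B (6.67%, against 1.61%). For shRNA A, the authors' deposited table has MMP3 at 35.2% of control, cyclin D1 (CCND1) at 52.0% and the growth regulator MYC at 61.4%. For shRNA B, the authors' deposited table has MYC at 54.6% of control. With a decrease of at least 2-fold the count was 1 for each MED25 hairpin. MMP3 was the 1 member listed for both targets, without a share of all genes to set beside it.

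Genes that ERK signalling induces, several of which damp the pathway that activates PEA3 factors, were counted in the same way. Of 18 such genes, 2 were listed for ETV4 shRNA A (11.1%, against 2.17%). They were the Sprouty inhibitors SPRY4 at −1.08 and SPRY1 at −0.67 in the authors' deposited table. None was listed for ETV4 shRNA B. With MED25 shRNA A 4 were listed (22.2%, against 3.44%), namely PHLDA1 at −0.89, the ephrin receptor gene EPHA2 at −0.88, the immediate early gene IER2 at −0.87 and the MAP kinase phosphatase gene DUSP4 at −0.70 in the authors' deposited table. For MED25 shRNA B there were 3 (16.7%, against 1.61%), IER2 at −1.39, the phosphatase gene DUSP5 at −0.80 and PHLDA1 at −0.74 in the authors' deposited table. No gene of this list was listed for both targets, from which nothing is read, as the share of all genes listed for both was not counted. With a decrease of at least 2-fold the counts were 0 for MED25 shRNA A and 1 each for MED25 shRNA B and ETV4 shRNA A. The lists hold few genes, and no test was made of these shares.

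AP-1 factors bind next to ETS factors at many composite sites, and ETS1 and AP-1 genes were in the same tables. Of 10 AP-1 genes, 3 were listed for each MED25 hairpin (30.0%, against 3.44% with shRNA A and 1.61% with shRNA B). The authors' deposited tables have JUN at −0.60 for shRNA A and −1.41 for shRNA B, so its values differed more between hairpins than those of ETS1. FOSL1 at −0.82 and JUNB at −0.67 were listed for shRNA B, and the repressor genes JDP2 at −1.45 and ATF3 at −1.20 for shRNA A, in the authors' deposited tables. Low scores of 42.0 for JDP2 and 40.4 for ATF3 stand in the authors' deposited table for MED25 shRNA A, so that with a score of at least 50 the count there was 1 in place of 3. With a decrease of at least 2-fold the count for MED25 shRNA B was 1 in place of 3. JDP2, at −1.07, was the 1 AP-1 gene listed for ETV4 shRNA A in the authors' deposited table, and none was listed for ETV4 shRNA B.

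Of all annotated protein-coding genes, 6.14% were listed in at least 1 table. Among 13 other partners of ETS factors, the 2 listed were MED25 itself, whose listing the experiment fixed, and RUNX2, of a family whose members bind DNA together with ETS1. RUNX2 was at −1.06 with MED25 shRNA A, with a low score of 24.5, in the authors' deposited table. Of 25 genes upstream of the ETS factors, including the RAS, RAF, MEK and ERK genes, the ubiquitin ligase gene COP1 and the repressor gene CIC, 0 were listed in any table, and a list of this size at the share of all genes would have few members listed.

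**Figure D5:**
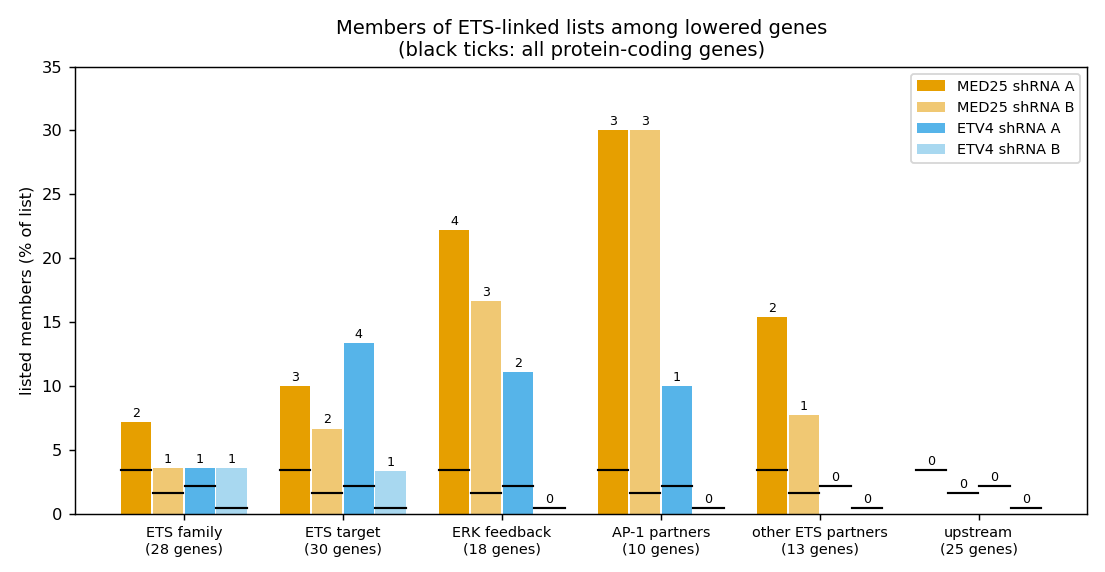
Share of each ETS-linked gene list that was listed as lowered in each comparison (vertical axis, % of the list), with the number of genes above each bar and a black tick for the share of all annotated protein-coding genes. AP-1 genes reach 30.0% with both MED25 hairpins, target genes reach 13.3% with ETV4 shRNA A, and upstream genes are at 0 in all 4 comparisons.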

How the data were processed

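The submitters' processing notes name the aligner Novoalign 3.08.02 and the build hg19. For counting, use of strand, annotation, scaling and the authors' test, the method is not stated. The authors deposited 4 tables of their own comparisons, each with a log2 ratio of knockdown against control and a score (headed adjusted p) per gene. Header numbers, read as first over second, put the control first in the MED25 tables, and these ratios were turned round. Ensembl identifiers were looked up in GENCODE 29, which is on a later build, so none of its gene coordinates are given. Of the 1400 genes, 1350 matched. Backgrounds are shares of its protein-coding genes. Promoter sequences are from RefSeq on GRCh38.p14, matched by gene. Members and lists were chosen with earlier results of these data known. Named are the 3 factors, MED25 and the 4 genes most like each factor among those in the same tables. The rule allowed 5 genes per list; the target and ERK lists go past it, and their further genes were named after their values were seen. Motif search was tested only for CCGGAAG, planted in simulated sequences of C and T. False matches and the other motifs were not tested. Protein sequences were not used here, and 1 listed gene of the target list is not reported here by name. Alternatives were ranking by score, protein-coding genes only, a log2 minimum of 1, a score minimum of 50 and the motif GGAAGT. Python 3.11.15, pandas 2.3.3, numpy 2.4.6 and matplotlib 3.10.9 were used.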

Additional observations from a re-analysis of the deposited data

How the results depend on the processing

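No paired analysis was possible because no values for single libraries were analysed here, and for the same reason no replicate could be left out. With an absolute log2 ratio of at least 1, 2 of the 5 values of the 3 factors remained, both those of ETV4, because ETS1 and ETV1 were lowered by less than 2-fold. With a score of at least 50, or among protein-coding genes only, all 5 remained. Ranking by score in place of decrease put 29.1% of the table ahead of ETV1, against 79.1%. For ETS1 it put 48.3% ahead with MED25 shRNA A, against 72.4%, and 31.8% with shRNA B, against 44.9%. Of the 20 pairs of another list and a table, the count moved by over 1.5 times in 8 with the log2 minimum and in 3 with the score minimum. Pairs with no member listed, such as all those of the upstream genes, are among the 20 and could not move. With GGAAGT in place of CCGGAAG, the share of promoters with the motif, less that of all protein-coding genes, was 2.07 percentage points for MED25 shRNA A, −4.66 for MED25 shRNA B, −3.30 for ETV4 shRNA A and −7.40 for ETV4 shRNA B. With CCGGAAG these were 0.548, −5.15, −6.45 and −7.64, so each kept its sign between these motifs. With AGGAAG the sign turned for MED25 shRNA B, at 34.6% against 33.6% of all windows, and for ETV4 shRNA A, at 33.7%. The low number of listed genes with ETV4 shRNA B limits every share given for it.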

Other observations

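The longer ETS site CCGGAAG was counted in promoters of the listed genes. It was in 32 of 496 promoter windows of genes listed for ETV4 shRNA A (6.45%) and in 6 of 114 for ETV4 shRNA B (5.26%), against 12.9% of the 21013 windows of all protein-coding genes. For MED25 shRNA B it was in 26 of 335 windows (7.76%), and for MED25 shRNA A in 104 of 773 (13.5%). Many genes had no window. The windows covered 325 of 432 listed protein-coding genes for ETV4 shRNA A and 71 of 91 for ETV4 shRNA B. For MED25 shRNA A they covered 513 of 686, for MED25 shRNA B 229 of 322, and over all protein-coding genes 14890 of 19951. The GC content of the windows averaged 58.3% ± 13.3 for ETV4 shRNA A, 59.6% ± 13.5 for ETV4 shRNA B, 64.0% ± 11.5 for MED25 shRNA B and 62.3% ± 11.7 for MED25 shRNA A (SD over windows), against 61.1% ± 12.1 for all. The part of base composition in these shares was not tested. AGGAAG was at 33.7% for ETV4 shRNA A and 31.6% for ETV4 shRNA B, against 33.6% of all windows. The AP-1 site TGANTCA was in 9.55% of windows for MED25 shRNA B, 6.86% for MED25 shRNA A, 7.26% for ETV4 shRNA A and 7.02% for ETV4 shRNA B, against 6.21% of all windows. Windows of 1 gene can overlap, so they are not independent, and no test was made.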
